A study of Bos taurus with 15 samples.

Results

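The enzymes that make and break down prostaglandins and the receptors that read them were described in the caruncular endometrium of cows. Probes were taken where the gene name of the array file began with PTGS, PTGE, PTGF, PTGD or PTGI or was HPGD, or where the annotation contained the word prostaglandin, without solute carriers. The rule found 15 probes of 13 genes among 15208 probes other than controls. HPGD, PTGER1 and some others were found through their annotation, since the array lists them under other names or, for PTGER1, under a locus identifier. The rule itself uses no measured value.

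The endometrium of Japanese Black cows was collected after artificial insemination, with the day of insemination counted as the first day. The 4 groups were NP15 (non-pregnant, day 15, 4 arrays), P15 (pregnant, day 15, 3 arrays), NP18 (non-pregnant, day 18, 4 arrays) and P18 (pregnant, day 18, 4 arrays). All cows had been inseminated, and a cow was called pregnant when a trophoblast was seen by eye in the opened horn on the side of the corpus luteum. No agent was given and no age is stated. Each array holds the total RNA of 1 sample, labelled with a single dye. Values below are the signal of a probe divided by the median signal of its array, so 1 is the level of the median probe. A signal can be compared between arrays for 1 probe, but not between probes.

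Array medians ran from 315 to 838 units, and 65.6% to 88.3% of probes were well above background. The lowest signal called well above background lay at 0.0196 to 0.0519 of the array median on day 15 and at 0.0660 to 0.180 on day 18, so weak probes had a higher floor on day 18. At least 8 of 9 probes for epithelial markers and all 7 for stromal markers were well above background in every array. The summed signal of 19 trophoblast probes was 0.696 to 2.90 in NP15, P15 and NP18 and 1.58 in P18 replicate 1, against 103 to 766 in P18 replicates 2 to 4. The summed signal of 18 leukocyte probes was 10.9 to 24.6 in the first 3 groups and 24.5 to 40.8 in P18. The number of them well above background did not rise with it. It was 13 to 16 in NP15, 13 to 17 in P15, 13 to 14 in NP18 and 11 to 14 in P18. ITGAM was not well above background in any array, MS4A1 and NKG7 in none of day 18, and PTPRC in none of P18. Of the 17 leukocyte probes tested, 15 were higher and 2 lower in P18 than in NP18. Their median log2 difference was 0.68, against 0.07 over all probes. Compared with P15, 13 were higher and 4 lower in P18, with a median of 0.35 against 0.12 over all probes. The summed epithelial signal was 280 to 357 in NP15, 143 to 195 in P15, 146 to 402 in NP18 and 240 to 344 in P18, and all 8 epithelial probes tested were lower in P15 than in NP15, although none was called. The summed stromal signal was 796 to 1574, 1037 to 1149, 643 to 1123 and 602 to 767 in the same order. The part of these cells in the values below was not tested. In bulk tissue, fewer cells of a type and less RNA per cell cannot be told apart. P15, NP18 and P18 were each scanned on a day of their own and NP15 on 3 other days. No scan day was shared between groups, so scan day and group cannot be told apart in any comparison.

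Prostaglandins are made from arachidonic acid, which phospholipases release from membranes. The cyclooxygenases PTGS1 and PTGS2 turn it into prostaglandin H2, and terminal synthases turn that into prostaglandins E2, F2 alpha, D2 or I2. In ruminants, pulses of prostaglandin F2 alpha from the endometrium end the life of the corpus luteum late in the cycle, and interferon tau from the trophoblast prevents this in pregnancy.

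The probes are shown first, because both cyclooxygenases had 2 probes that did not read alike. The last 30 of the 60 bases of each probe follow as the array file lists them, with the motif AATAAA (the polyadenylation signal) in capitals. The probes of PTGER2, PTGDS and PTGER4 are those behind the differences given below.
PTGS1 bright probe: atggcagctgtttctcatgaagctAATAAA
PTGS1 dim probe: atagaggagtatgtgcagcagctgagcggc
PTGS2 bright probe: atttggaatatatgagtgttttggtgcctc
PTGS2 dim probe: ggactgctatttagctcctcttaagaagat
PTGER2: gaaacatggcttgactcatgctctatagga
PTGER4: gcagttgtgccaactgaaattattttggag
PTGDS: gctctgaaAATAAActctgaagcaagtcag
The PTGS1 probes share a run of at most 7 bases and the PTGS2 probes of at most 5 over their full length. AATAAA was found in 3 of the 15 probes (PTGS1 bright, PTGDS and PTGES) and in 11.3% of the 15208 probes. Its reverse complement TTTATT was found in 1 of the 15 and in 4.14% of all. The position of the probes in the genome is not given in the sources used here. The accessions behind both PTGS1 probes and the dim PTGS2 probe are not in the RefSeq gene table used for names, so these 3 are named from the symbol, older names (COX1, COX2) or description that the array file gives them. Whether the bright PTGS1 probe and the dim PTGS2 probe were designed on a bovine sequence could not be checked here, and all PTGS1 values below rest on that bright probe.

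The bright PTGS1 and PTGS2 probes were well above background in all 15 arrays. The dim PTGS1 probe reached that level in 2 arrays (P15 replicates 1 and 3) and the dim PTGS2 probe in 1 (NP18 replicate 3). The only probe of PTGFR, the receptor for prostaglandin F2 alpha, reached it in 2 arrays, P15 replicate 1 at 0.0215 and NP18 replicate 4 at 0.167. These 3 probes were not tested, since the test required 3 or more arrays at that level. The other 12 probes, 1 for each of the other 12 genes, were tested among the 13161 that passed. A gene was called when limma gave an adjusted p below 0.05 and the fold change was over 2.

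No prostaglandin gene was called between pregnant and non-pregnant cows on either day, while PTGER2 was higher and PTGDS lower on day 18 than on day 15 both in the cycle and in pregnancy. PTGER4 was also higher on day 18 of the cycle. All of these calls were lost when scan day entered the fit as a random block. No scan day was shared between groups, and the loss was not particular to these genes. With that block the calls over all probes fell from 942 to 54 in NP18 minus NP15 and from 1566 to 0 in P18 minus P15.

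PTGS1 is the cyclooxygenase that many tissues express at a steady level. Its signal was 0.851, 0.780, 0.729 and 1.39 in NP15, 0.600, 1.04 and 0.669 in P15, 0.946, 1.14, 1.79 and 0.933 in NP18, and 1.22, 1.19, 3.37 and 1.22 in P18. P18 lay above P15 without overlap, and P18 replicate 3 was far above the other P18 arrays. The log2 difference P18 minus P15 was 1.07 ± 0.38 (SE), with an adjusted p of 0.0705 by limma. P18 minus NP18 was 0.43 ± 0.36. Without P18 replicate 3 these differences were 0.70 and 0.07. P18 replicate 3 also had the highest summed leukocyte signal, 40.8 against 24.5 to 29.9 in the other P18 arrays. It had the fewest leukocyte probes well above background, 11 of 18 against 13 or 14 in the other P18 arrays. The same array had the smallest share of all probes at that level, 65.6% against 70.4% to 73.9% in the other P18 arrays. The part of leukocytes in the PTGS1 value was not tested.

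PTGS2 is the cyclooxygenase induced by many stimuli. It was 56.2, 11.8, 13.5 and 37.1 in NP15, 28.3, 40.4 and 27.2 in P15, 6.55, 53.0, 93.3 and 13.7 in NP18, and 37.5, 23.6, 48.6 and 33.5 in P18. Arrays of NP18 differed more among themselves than the groups did, and the lowest and highest values of the series both lay in NP18. The log2 difference was 0.39 ± 0.76 for P15 minus NP15 and 0.42 ± 0.70 for P18 minus NP18. The 95% interval of the second, -1.07 to 1.92, leaves changes of over 2-fold in either direction possible.

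PTGES, the inducible prostaglandin E synthase, was 0.664, 0.615, 5.04 and 0.484 in NP15, 1.63, 1.04 and 3.60 in P15, 0.751, 1.76, 2.62 and 0.779 in NP18, and 1.70, 1.58, 2.12 and 1.08 in P18. NP15 replicate 3 stood far above the other NP15 arrays and above every other array. The log2 difference was 0.87 ± 0.71 for P15 minus NP15 and 0.30 ± 0.66 for P18 minus NP18. Leaving out NP15 replicate 3 moved the first to 1.65, with an adjusted p of 0.0879 (range over all arrays left out in turn, 0.0879 to 0.922), and leaving out P15 replicate 3 moved it to 0.39.

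PTGES2, a membrane-associated prostaglandin E synthase, was well above background in 12 of the 15 arrays, the fewest of the genes tested. It was 0.137, 0.129, 0.0931 and 0.0195 in NP15, 0.0508, 0.0576 and 0.0416 in P15, 0.0826, 0.157, 0.164 and 0.113 in NP18, and 0.117, 0.138, 0.0963 and 0.108 in P18. NP15 replicate 4 and P18 replicates 1 and 3 were not well above background. P18 lay above P15 without overlap, by 1.20 ± 0.52 on the log2 scale with an adjusted p of 0.123, but only 2 of the 4 P18 values were well above background.

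PTGES3, the cytosolic prostaglandin E synthase that is also a chaperone partner, ran from 3.39 to 10.5 in NP15, 7.44 to 12.6 in P15, 6.53 to 12.9 in NP18 and 7.49 to 10.7 in P18. PTGIS, which makes prostacyclin, ran from 3.15 to 9.63, 5.81 to 8.21, 3.55 to 6.34 and 4.15 to 8.20 in the same order. The groups overlapped in every comparison for both genes. All of their pairwise log2 differences lay between -0.32 and 0.49.

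PTGDS, the lipocalin-type synthase of prostaglandin D2, was 64.4, 83.6, 83.9 and 94.9 in NP15 and 61.5, 71.8 and 83.9 in P15. It was 50.2, 30.6, 42.3 and 12.4 in NP18 and 34.9, 31.0, 22.9 and 31.5 in P18. All 8 arrays of day 18 lay below all 7 arrays of day 15, while pregnant and non-pregnant cows of the same day overlapped. NP18 minus NP15 was -1.43 ± 0.35 with an adjusted p of 0.0196, and P18 minus P15 was -1.27 ± 0.37 with an adjusted p of 0.0333. The mean signal was 81.7 ± 12.7 (SD, n = 4) in NP15, 72.4 ± 11.2 (n = 3) in P15, 33.9 ± 16.4 (n = 4) in NP18 and 30.1 ± 5.10 (n = 4) in P18. P18 minus NP18 was -0.01, with a 95% interval of -0.75 to 0.73. The call in the cycle was kept with each array left out in turn, though without NP18 replicate 4 the difference was -1.01. The call in pregnancy was lost with any P15 array left out (adjusted p of 0.0757, 0.0888 and 0.120 without replicates 1, 2 and 3) and with P18 replicate 2, 3 or 4 left out (0.0652, 0.0869 and 0.0573).

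HPGD begins the breakdown of prostaglandins E2 and F2 alpha by oxidising the 15-hydroxyl group. It was 30.8, 25.0, 25.8 and 15.9 in NP15, 24.0, 12.3 and 11.6 in P15, 32.5, 69.5, 31.5 and 4.59 in NP18, and 31.3, 60.9, 40.7 and 37.1 in P18. Every P18 array lay above every P15 array, and NP18 replicate 4 lay below all other arrays. P18 minus P15 was 1.45 ± 0.65, with an adjusted p of 0.139. Without NP18 replicate 4, which enters through the shared spread, the same difference had an adjusted p of 0.0163 (range over the arrays left out in turn, 0.0163 to 0.32). P18 minus NP18 was 0.79 ± 0.60, and -0.008 without NP18 replicate 4. The summed epithelial signal was also lower in every P15 array than in every P18 array, and its part in the difference between P18 and P15 was not tested.

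**Figure D1:**
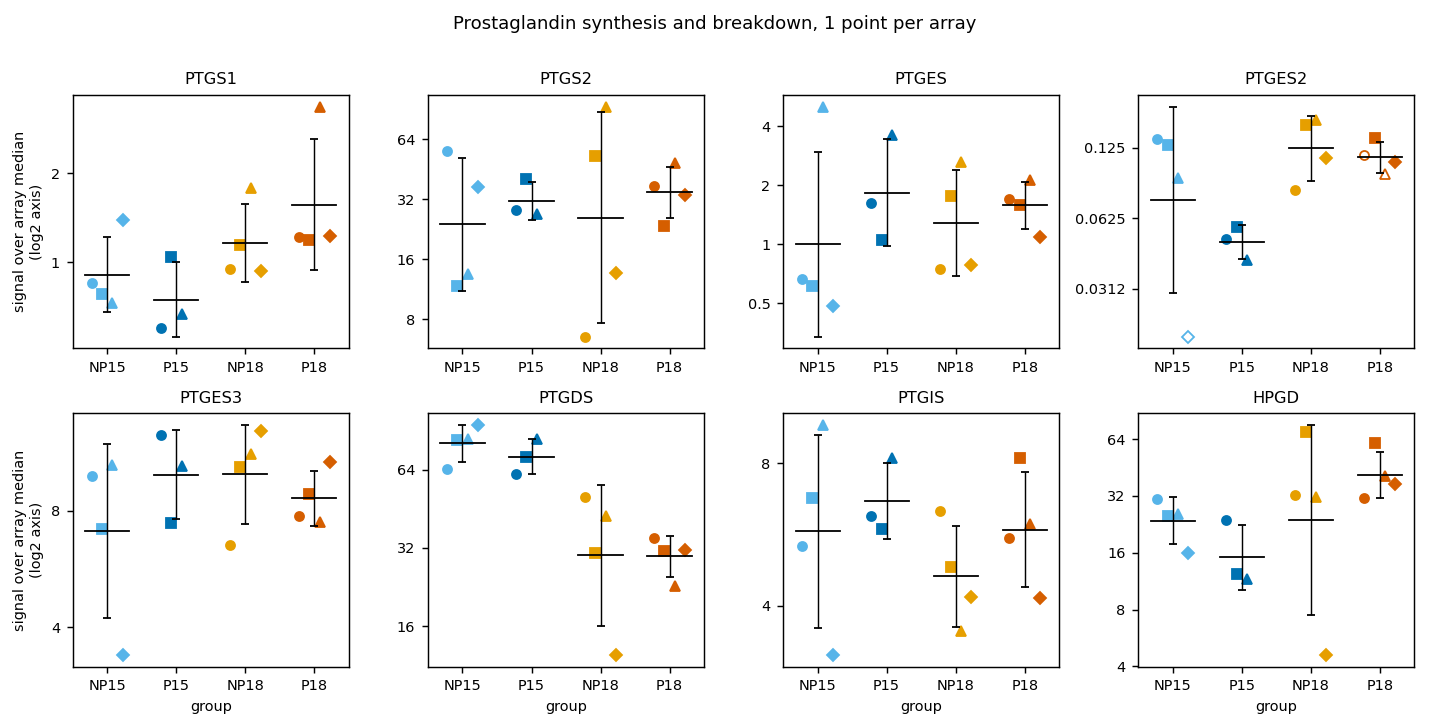
Signal over array median (log2 axis) of the 8 enzymes of synthesis and breakdown in the 4 groups. Each point is 1 array (circle, square, triangle and diamond for replicates 1 to 4), open where not well above background, and the bar and whiskers are the mean and SD of log2 values. All 8 PTGDS values of day 18 lie below the 7 of day 15, PTGS2 spreads from 6.55 to 93.3 within NP18, and single arrays stand apart for PTGES in NP15 and PTGS1 in P18.

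Prostaglandin E2 acts through 4 receptors, of which PTGER2 and PTGER4 raise cyclic AMP, PTGER1 raises calcium and PTGER3 mostly lowers cyclic AMP. PTGER2 was 0.646, 0.245, 0.416 and 0.649 in NP15, 0.615, 0.336 and 0.503 in P15, 0.523, 2.25, 1.25 and 1.27 in NP18, and 1.80, 1.83, 1.98 and 3.12 in P18. The P18 arrays lay above all arrays of day 15, and in NP18 only replicate 1 lay within the range of day 15. P18 minus P15 was 2.17 ± 0.45 with an adjusted p of 0.00744, and NP18 minus NP15 was 1.36 ± 0.41 with an adjusted p of 0.0485. The mean signal was 0.489 ± 0.196 (SD, n = 4) in NP15, 0.485 ± 0.141 (n = 3) in P15, 1.32 ± 0.708 (n = 4) in NP18 and 2.18 ± 0.630 (n = 4) in P18. P18 minus NP18 was 0.86 ± 0.41, with an adjusted p of 0.221, and P15 minus NP15 was 0.05 ± 0.45. The rise with day was not shown to differ between cycle and pregnancy, since the difference between the 2 rises was 0.81 ± 0.61 with an adjusted p of 0.499. The call in pregnancy was kept with each array left out in turn. P18 replicate 1, with 1.80, had as little trophoblast signal as the other groups, and with it as the only P18 array the difference from P15 was 1.94. That fit rests on 1 array of P18, and the part of trophoblast in the difference between P18 and P15 was not tested. Over the other alternatives the adjusted p of this difference ran from 0.00027 to 0.246 (scan day as a random block). The call in the cycle was lost on leaving out any of 12 of the 15 arrays, with adjusted p-values up to 0.131. It was kept without NP15 replicate 1 or 4 and without NP18 replicate 1.

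PTGER4 was 4.01, 2.90, 7.80 and 1.51 in NP15, 9.46, 4.43 and 6.43 in P15, 11.9, 6.77, 7.77 and 47.3 in NP18, and 5.41, 8.85, 12.9 and 5.90 in P18. NP18 replicate 4 was the highest array of the series, and the other NP18 arrays lay within the range of P18. NP18 minus NP15 was 1.94 ± 0.59 with an adjusted p of 0.0482, although NP15 replicate 3 overlapped NP18. Without NP18 replicate 4 the difference was 1.32 with an adjusted p of 0.123, and the call was lost on leaving out any of 13 of the 15 arrays (all but NP15 replicate 3 and NP18 replicate 2). In pregnancy the difference between days was 0.27 ± 0.63, and the 2 differences were not shown to differ (-1.67 ± 0.87, adjusted p of 0.309). PTGER4 was 0.92 ± 0.63 higher in P15 than in NP15 on the log2 scale and 0.75 ± 0.59 lower in P18 than in NP18, neither of which passed the test. Without NP18 replicate 4 the difference P18 minus NP18 was -0.14.

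PTGER1 was 0.607, 0.285, 0.234 and 0.321 in NP15, 0.101, 0.217 and 0.153 in P15, 0.139, 0.153, 0.179 and 0.318 in NP18, and 0.174, 0.314, 0.194 and 0.306 in P18. It was well above background in all arrays, and all P15 arrays lay below all NP15 arrays. P15 minus NP15 was -1.17 ± 0.39, with an adjusted p of 0.182. The summed epithelial signal did not overlap between the same groups either (143 to 195 in P15 against 280 to 357 in NP15), and its part in this difference was not tested. The effect of pregnancy on day 18 minus that on day 15 was 1.53 ± 0.52, with an adjusted p of 0.128. PTGER3 was 1.99 in NP18 replicate 1 and between 0.153 and 0.841 in the other 14 arrays, and all of its pairwise log2 differences lay between -0.36 and -0.19.

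**Figure D2:**
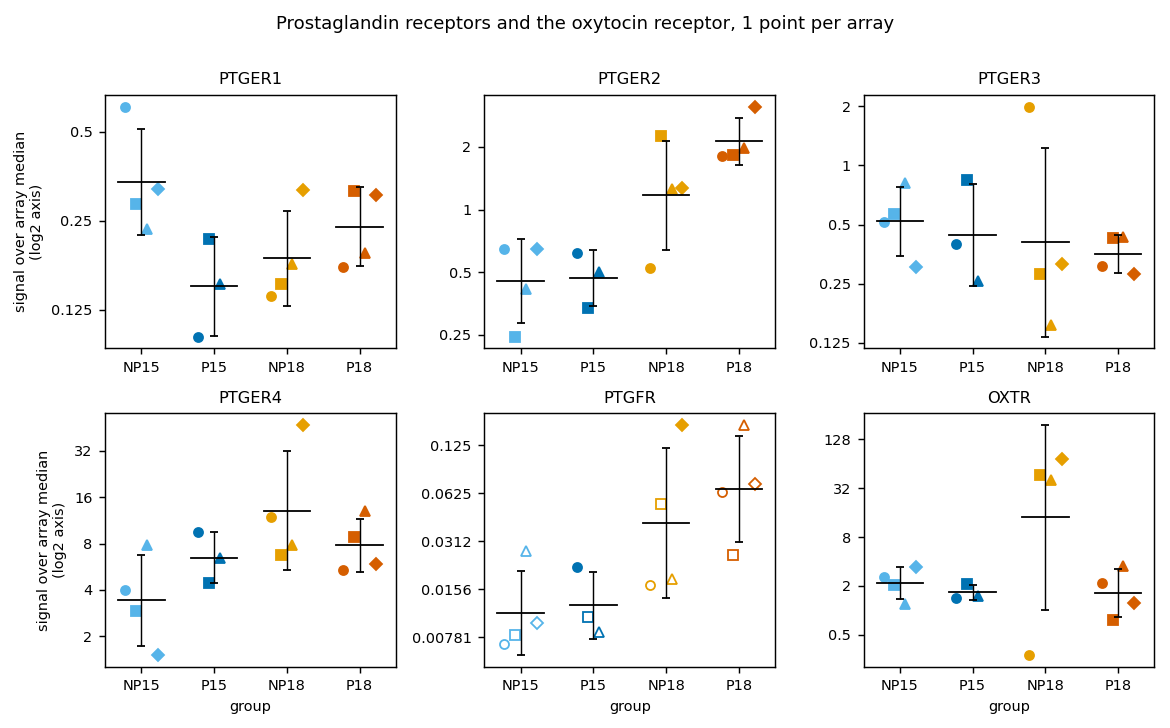
Signal over array median (log2 axis) of the 5 prostaglandin receptors and the oxytocin receptor OXTR in the 4 groups, with symbols as for the enzymes. PTGER2 is 1.80 to 3.12 in P18 against 0.336 to 0.615 in P15, PTGFR is well above background in only 2 arrays, and OXTR is 40.6 to 74.4 in 3 NP18 arrays and 0.281 in the other.

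Counted over the family, P15 and NP15 differed in 0 of the 12 genes tested by limma, against 0.798% of all probes tested. At an unadjusted p below 0.05, 1 gene (PTGER1) passed, against 14.9% of all probes. A fit with array weights called 2 genes (PTGER1 and PTGES2, both lower in P15), against 853 of the 13161 probes tested. The methods' t-test without adjustment called 1 (PTGER1), against fewer than 853 of all probes. P18 and NP18 differed in 0 of 12, against 5.75% of all probes, and 0 passed at an unadjusted p, against 24.1%. No alternative called a gene there. The effect of pregnancy did not pass the test of a difference between days for any of the 12, against 2.72% of all probes. PTGER1 alone was below an unadjusted 0.05 (19.3% of all probes), and it was called with normexp background correction and with array weights. Normexp called 1376 of all probes there, against 358 in the main fit.

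Between days, NP18 minus NP15 gave 3 calls of 12 (2 higher, 1 lower), against 7.16% of all probes (2.89% higher and 4.26% lower). P18 minus P15 gave 2 calls (1 higher, 1 lower), against 11.9% (7.58% higher and 4.32% lower). The 2 comparisons use different arrays but share 1 estimate of the spread. The groups did not overlap for 5 of the 12 genes between P18 and P15 (PTGER2, HPGD, PTGES2, PTGS1 and PTGDS), against 42.8% of all probes. They did not overlap for 1 between NP18 and NP15 (PTGDS, against 13.1%), for 1 between P15 and NP15 (PTGER1, against 15.6%) and for none between P18 and NP18 (16.3%). The median log2 difference of the 12 genes was -0.06 for P15 minus NP15 (-0.06 over all probes), 0.31 for P18 minus NP18 (0.07), 0.23 for NP18 minus NP15 (0.02) and 0.20 for P18 minus P15 (0.12).

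The two-sided exact permutation test of single genes gave p = 0.0286, the smallest p that 4 against 4 or 4 against 3 arrays can give, for PTGER2 between P18 and P15 and for PTGDS between the days in both states. HPGD, PTGES2 and PTGS1, which limma did not call, gave the same exact p between P18 and P15, where 42.8% of all probes did not overlap. The same exact test gave p = 0.0857 for PTGER2 and for PTGER4 between NP18 and NP15. It was run 48 times over the 12 genes and these p-values are not adjusted. With scan day as a random block the 5 calls had adjusted p-values of 0.246 (PTGER2) and 0.387 (PTGDS) in pregnancy and 0.380 (PTGER2), 0.359 (PTGER4) and 0.266 (PTGDS) in the cycle.

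**Figure D3:**
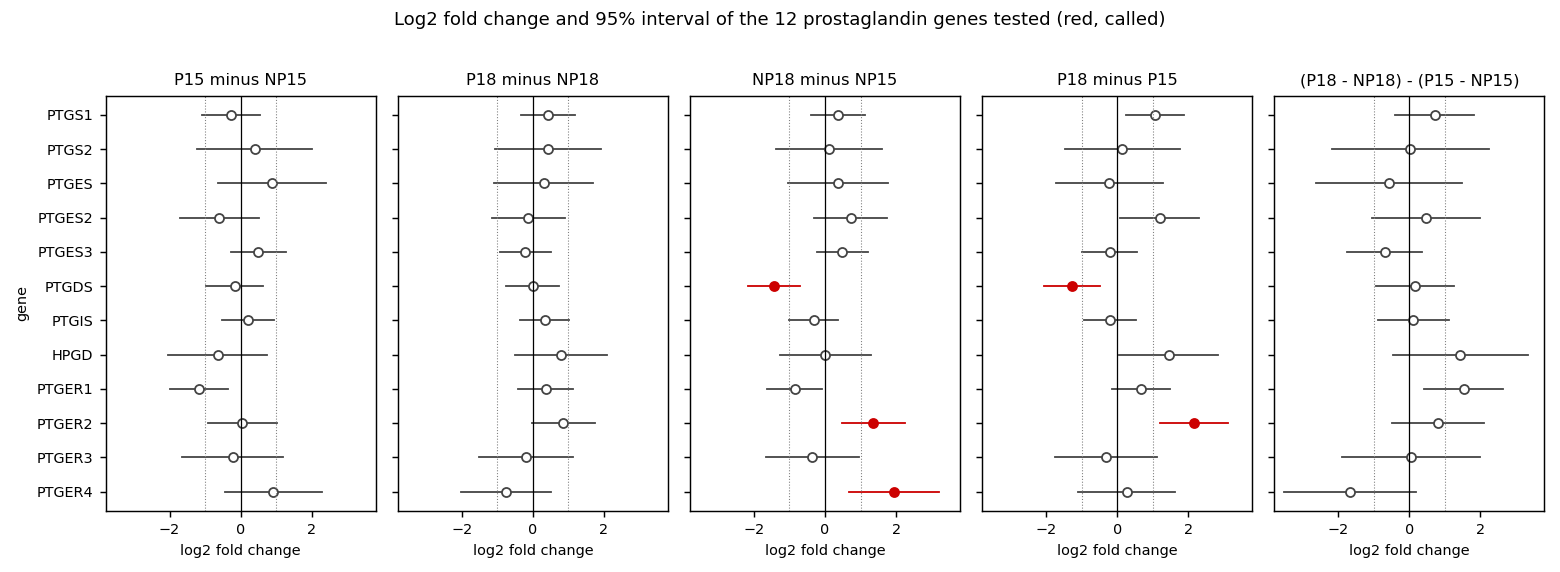
Log2 fold change (point) and 95% interval (line) of the 12 genes tested in the 4 pairwise comparisons and the difference of the 2 pregnancy effects, with dotted lines at a fold change of 2. Red filled points were called; these are PTGDS, PTGER2 and PTGER4 in NP18 minus NP15 and PTGDS and PTGER2 in P18 minus P15.

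**Figure D4:**
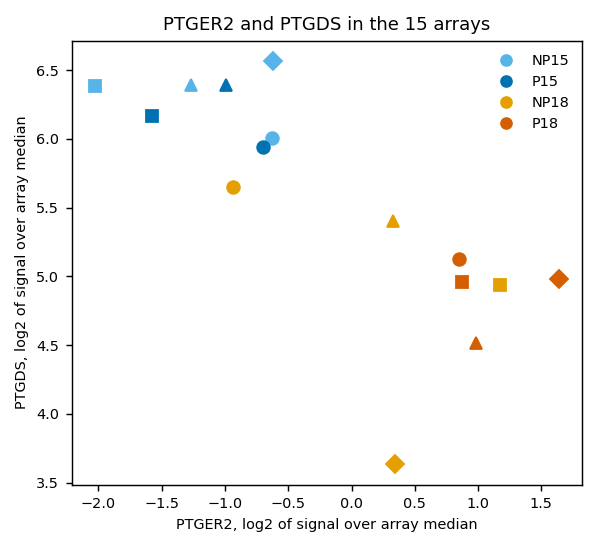
PTGER2 against PTGDS in the 15 arrays, both as log2 of the signal over the array median, with colours for the groups and the replicate symbols of the other plots. The 7 arrays of day 15 lie at high PTGDS and low PTGER2, those of day 18 at lower PTGDS, and 1 array of NP18 (replicate 1) has a day-18 PTGDS value of 50.2 with a PTGER2 value of 0.523 inside the range of day 15.

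Among the luteolytic inputs, OXTR and PGR are given by array. OXTR, the receptor through which oxytocin raises prostaglandin F2 alpha, was 0.281, 46.3, 40.6 and 74.4 in NP18 and at most 3.56 in every array of the other groups. NP18 replicate 1 stood below all other arrays for OXTR. PGR, the progesterone receptor, was 4.71, 10.5, 10.9 and 27.3 in NP18, so the same array was again the lowest of its group. This array also had the lowest PTGS2 (6.55) and PTGER2 (0.523) and the highest PTGDS (50.2) and PTGER3 (1.99) of NP18. Its summed epithelial signal was 146, against 305 to 402 in the other NP18 arrays, and the part of epithelium in these values was not tested. NP18 replicate 4, with the highest OXTR and PGR, had the highest PTGER4 (47.3) and the lowest PTGDS (12.4) and HPGD (4.59). Its summed smooth muscle signal was the highest of the series, 469 against 65.7 to 281 in the other arrays, and the part of muscle in these values was not tested. With all arrays OXTR was not called in any comparison (P18 minus NP18, -3.11 ± 1.28, adjusted p of 0.156). That rested on NP18 replicate 1. Without it OXTR was called in P18 minus NP18 (-4.99, adjusted p of 0.00011), in NP18 minus NP15 (4.59, adjusted p of 0.000417) and in the difference of the 2 pregnancy effects (-4.62, adjusted p of 0.0115), and with any other array left out in none. A fit with array weights called OXTR in the same 3 comparisons.

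The wider pathway was followed in a list of 54 other genes for arachidonic acid release, other terminal enzymes, receptors and their signalling, export and breakdown, lipoxygenases and luteolytic inputs, of which 52 of 56 probes were tested. No probe of the list was called between P15 and NP15 by limma, against 0.798% of all probes. There 4 were below an unadjusted 0.05 (14.9% of all probes), and a fit with array weights called 2 (853 of the 13161 probes tested). The median of the list was 0.10, and -0.06 over all probes. In the other comparisons every call of the list was lost when scan day was a random block. Adjusted p-values were then 0.239 to 0.699 for P18 minus NP18, 0.094 to 0.283 for NP18 minus NP15 and 0.206 to 0.375 for P18 minus P15. Over all probes the same block took the calls from 757 to 49 in P18 minus NP18.

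Between P18 and NP18, 3 probes of the list were higher and 3 lower, against 3.65% and 2.1% of all probes, with a list median of -0.08 and 0.07 over all. ANXA1, a calcium-dependent protein known to inhibit phospholipase A2, was 1.46 ± 0.39 higher on the log2 scale in P18 (218 ± 96.5 against 77.3 ± 26.2, SD, n = 4 each, adjusted p of 0.0389). CBR1, a carbonyl reductase that can turn prostaglandin E2 into F2 alpha, was 1.42 ± 0.36 higher (12.2 ± 3.81 against 4.98 ± 2.93, adjusted p of 0.0316). Its relative CBR3 was 1.13 ± 0.25 higher (7.96 ± 1.89 against 3.64 ± 0.860, adjusted p of 0.0154), and every P18 array lay above every NP18 array for CBR3. The 3 lower probes, 2 for the oestrogen receptor ESR1 and 1 for the interferon receptor subunit IFNAR1, were not well above background in any P18 array. With the NP18 values taken as read, the brighter ESR1 probe and IFNAR1 were therefore at least 1.04-fold lower. Their adjusted p-values by limma (0.0019 and 0.0179) belong to fitted log2 differences of -2.27 and -1.98, which use P18 values not well above background. The p-values do not test the bound. No bound over 1 could be set for the dimmer ESR1 probe. These bounds are not firm, since in NP18 the brighter ESR1 probe was well above background in 3 of 4 arrays and IFNAR1 in 2 of 4. The brighter ESR1 probe kept its call with each array left out in turn. CBR3 lost its call without NP18 replicate 3 or P18 replicate 2, CBR1 and IFNAR1 without 5 and 3 of the 15 arrays, and ANXA1 and the dimmer ESR1 probe without 8 and 10.

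Between the days of the cycle, 3 probes were higher and 3 lower in NP18, against 2.89% and 4.26% of all probes, with a list median of 0.19 and 0.02 over all probes. TBXAS1, the thromboxane synthase, was 1.89 ± 0.49 higher on the log2 scale (adjusted p of 0.0257), and S100A10, an annexin partner that binds phospholipase A2, was 1.35 ± 0.32 higher (49.7 ± 23.4 against 18.5 ± 5.25, SD, n = 4 each, adjusted p of 0.0174). The dimmer ESR1 probe was 2.13 ± 0.37 higher (adjusted p of 0.0042), well above background in 3 of 4 NP18 arrays and 1 of 4 NP15 arrays, while the brighter ESR1 probe was 0.92 ± 0.36 higher and not called. The thromboxane receptor TBXA2R (-1.26 ± 0.24) and the lipoxygenase ALOX5 (-1.28 ± 0.38) were lower, each well above background in only 1 NP18 array. PRKAR1A, a regulatory subunit of protein kinase A, was not well above background in any array of day 18, and no bound could be set. Leaving out arrays in turn, S100A10 lost its call without NP18 replicate 2, TBXAS1 without NP18 replicate 2, 3 or 4, and ALOX5 without any of 10 arrays, while the other 3 probes kept theirs.

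Between the days of pregnancy, 3 probes were higher and 5 lower in P18, against 7.58% and 4.32% of all probes, with a list median of -0.003 and 0.12 over all probes. AKR1C4, which the array names AKR1C1 and which belongs to a family of aldo-keto reductases with near-identical copies that the probe may not separate, was 2.62 ± 0.69 higher on the log2 scale (6.37 ± 4.51, SD, n = 4, against 0.929 ± 0.442, n = 3, adjusted p of 0.0204). ANXA1 was 1.82 ± 0.42 higher (adjusted p of 0.0127) and the phospholipase PLAAT3 was 1.52 ± 0.31 higher (58.7 ± 15.2 against 20.0 ± 1.89, adjusted p of 0.0073). GNA11, a G protein subunit that couples receptors to phospholipase C, was 1.17 ± 0.23 lower (adjusted p of 0.0065), and the leukotriene receptor LTB4R was 1.15 ± 0.35 lower (adjusted p of 0.0378). PLCB1, PRKAR1A and IFNAR1 were also called lower, but none was well above background in any P18 array. PLCB1, a phospholipase C, was at least 1.25-fold lower. Its adjusted p of 0.0233 by limma belongs to the fitted log2 difference of -1.57 and does not test that bound. PLAAT3 and GNA11 kept their calls with each array left out in turn. ANXA1 lost its call without P15 replicate 1, PRKAR1A without P15 replicate 1 or 3, AKR1C4 without P15 replicate 2 or 3 or P18 replicate 4, and PLCB1, LTB4R and IFNAR1 each without any of 6 arrays.

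For 1 probe of the list, PTGR2, the difference of the 2 effects of pregnancy was called, against 2.72% of all probes, and the gene is named here after its values were seen. PTGR2 reduces 15-keto prostaglandins, the step after HPGD. It was 1.45 ± 0.229 (SD, n = 4) in NP15, 2.59 ± 0.429 (n = 3) in P15, 2.79 ± 0.459 (n = 4) in NP18 and 1.86 ± 0.372 (n = 4) in P18. The mean of P15 was thus above that of NP15, and the mean of P18 below that of NP18. Arrays of P18 and NP18 overlapped, and neither effect of pregnancy was called on its own. The difference of the 2 effects was -1.44 ± 0.32, with an adjusted p of 0.0294. With P18 by its replicate 1 alone the difference was -1.86, from a fit with 1 array of P18 that is not taken as support for the call. The call was lost with slide (adjusted p of 0.0504), scan day (0.648) or replicate number (0.0543) as a block. It was also lost without NP15 replicate 2, P18 replicate 3 or any P15 array (up to 0.0845). The range over all alternatives was 0.00411 to 0.648.

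**Figure D5:**
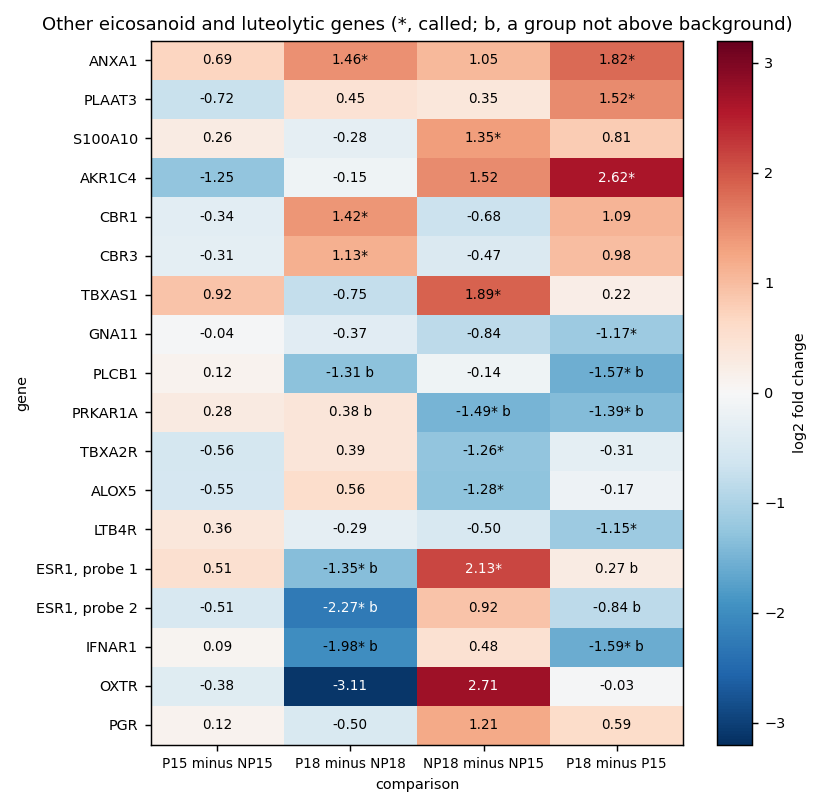
Log2 fold change (number and colour) of the pathway genes called in at least 1 pairwise comparison, and of OXTR and PGR, in the 4 comparisons. A star marks a call and b a comparison in which 1 of the groups was not well above background on any array, so that the number there is no measured fold; CBR1 and CBR3 are starred only between P18 and NP18, and ANXA1 in both comparisons that involve P18.

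For 5 of the genes the 3 most alike genes among 5229 others were sought by Pearson's r of log2 values over the 15 arrays. The arrays come from 4 groups and share scaling and scan days, and r is given as a description. Single far arrays, such as P18 replicate 3 for PTGS1 and NP15 replicate 3 for PTGES, can weigh heavily in r, which was not taken without them. PTGS1 was most like ETV6 (0.90), GZMB (0.90) and IL2RA (0.89), and PTGS2 like CTSH (0.79), SCO1 (0.76) and CA2 (0.75). PTGES was most like GDF6 (0.85), VWA5A (0.84) and CHI3L1 (0.81). PTGER2 was most like NET1 (0.94), TKT (0.93) and IL1RN (0.93), and PTGER4 like FKBP3, RSPO3 and DELE1 (0.93 each). PTGFR was left out because its probe was not tested.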

How the data were processed

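Total RNA of caruncular endometrium was labelled with Cy3 and hybridized to a custom 15K oligonucleotide array with 60-base probes. The authors deposited the scanner files, written by Agilent Feature Extraction 9.5 per the submitters' processing notes, whose processed signal is an intensity after background correction, and a table of log2 values. The deposited log2 table equalled log2 of the processed signal minus a constant for each array that differed from log2 of its 75th percentile by -0.0126 to -0.0052, while the methods name the median. Its column medians ran from -3.19 to -2.73, and it was used as an alternative.

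Here log2 was taken of each processed signal over the array median, the scaling that the methods name. Control probes and outlier-flagged spots were left out, and no saturated spot fell on the genes described. A probe was kept when 3 or more arrays showed it well above background (13161 of 15208 probes), and 9550 reached that level on every array. One mean per group was fitted to all 15 arrays with limma 3.58.1 in R 4.3.3 (statmod 1.5.0 for random blocks), and p-values were adjusted by Benjamini-Hochberg over all probes kept. A call needed both a fold change over 2 and an adjusted p below 0.05. The fit was tested on simulated data. The groups hold 3 or 4 arrays, whose number limits the precision, and the labels do not tie arrays to cows, so p-values measure the spread between these arrays.

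The symbols of 6090 probes were taken from RefSeq by accession, gene identifier, symbol or synonym, and the others kept the array's own names. The probe of highest mean stood for a gene with several. The genes named are those that met the rule for prostaglandin genes, the pathway genes called in a pairwise comparison, OXTR, ESR1 and PGR, and the most alike genes. The genes and the lists were chosen with earlier results of these data known. Other scalings, background correction, filters, array weights, random blocks for slide and scan day, a replicate block, the methods' t-test and leaving out each array in turn were tried. Python and matplotlib drew the plots.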

Additional observations from a re-analysis of the deposited data

Results flagged for a closer look

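In 36 groups of 4 arrays, 12 genes in NP15, NP18 and P18, an array far from the other 3 was looked for, and 2 were found. Chance gives about 1 in 20 groups such an array. PTGS1 in P18 replicate 3 was 3.37 against 1.19 to 1.22 in the other P18 arrays, and the gap to the nearest of them was 0.976 of the whole range of the group on the log2 scale. PTGES in NP15 replicate 3 was 5.04 against 0.484 to 0.664, with a gap of 0.864 of the range. P18 replicate 3 had the highest summed leukocyte signal of the series (40.8). It had the fewest leukocyte probes well above background (11 of 18) and also the smallest share of all probes at that level (65.6%). NP15 replicate 3 had the highest summed stromal signal (1574). The part of these cells in both values was not tested.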

How the results depend on the processing

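Every call of a prostaglandin gene kept its direction under all 30 alternatives. PTGDS kept its call in 27 of 30 in the cycle and 20 in pregnancy, PTGER2 in 10 and 28, and PTGER4 in 6 in the cycle. Of 12 genes, the 3 calls of NP18 minus NP15 became 1 with 75th percentile scaling, the authors' log2 table, slide as a random block, a replicate block and P18 by its replicate 1 alone (chosen after seeing the data, with its spread taken from the other groups), and 0 with only the groups compared, scan day as a random block or the adjusted t-test. The 2 calls of P18 minus P15 became 4 with array weights, only the groups compared or the methods' t-test with or without adjustment, 1 with slide or a replicate block, and 0 with scan day or P18 by its replicate 1 alone. In P15 minus NP15 the count of 0 became 2 with array weights and 1 with the unadjusted t-test, and in the interaction 1 with normexp or array weights. Over all probes, array weights raised the calls of P15 minus NP15 from 105 to 853, and normexp those of the interaction from 358 to 1376. The calls over all probes in NP18 minus NP15 were 942 in the main fit, 54 with scan day and 1744 without a filter. Those in P18 minus P15 were 1566, 0 and 3080 in the same order. Leaving out each array gave 1 to 2 calls of the 12 genes in NP18 minus NP15, 1 to 3 in P18 minus P15 (3 without NP15 or NP18 replicate 4) and 0 elsewhere. Over all probes it gave 616 to 1568 calls in NP18 minus NP15 and 737 to 1730 in P18 minus P15. The cause was not tested.

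For the wider list, P15 minus NP15 went from 0 to 2 with array weights. The 6 of P18 minus NP18 became 3 with normexp, probes above background in all arrays or slide, and 0 with scan day, the adjusted t-test or P18 by its replicate 1 alone. The 1 of the interaction became 5 with quantile normalization, 8 with normexp or array weights, 2 without a filter or with probes above background in all arrays, and 0 with slide, scan day, the replicate block or P18 by its replicate 1 alone. The 6 of NP18 minus NP15 became 2 with probes above background in all arrays, 12 with array weights, and 0 with only the groups compared, scan day or the adjusted t-test. The 8 of P18 minus P15 became 4 with normexp, 5 with probes above background in all arrays, 13 with array weights, and 0 with scan day or P18 by its replicate 1 alone. Leaving out each array gave 0, 1 to 7 (1 without NP18 replicate 3 or P18 replicate 2), 0 to 5, 3 to 12 and 3 to 9 in the same order. No t-test was run for the interaction. Over all probes the calls of P18 minus NP18 were 757 in the main fit, 49 with scan day and 1344 with array weights. Those of the interaction were 358 in the main fit, 0 with scan day and 1376 with normexp. With each array left out they ran from 429 to 1045 in P18 minus NP18 and from 59 to 549 in the interaction.

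Arrays of equal replicate number showed little common deviation (correlations of -0.26 to 0.30 over 14 pairs, 2 of them over 0.1). Such correlations cannot exclude a pairing by these numbers. With the replicate block, PTGER2 (adjusted p of 0.0698) and PTGER4 (0.0727) lost their calls in the cycle and PTGDS (0.0829) in pregnancy. Scaling by the 75th percentile moved the median of all probes by -0.30 in P18 minus P15 and by -0.18 to 0.10 in the other comparisons. Arrays of 1 slide or scan day correlated by 0.112 and 0.336 after the group means. The second value rests on NP15 alone, which had 3 scan days for 4 arrays against 1 day in each other group. Weak probes, among them PTGFR, PTGES2 and both dim cyclooxygenase probes, were limited by background.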
